A study of Mus musculus with 16 samples.

Results

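The comparison described here asks which olfactory receptors changed their enrichment in reporter-positive cells when mice smelled octanoic acid, a straight-chain fatty acid, in place of clean air. It uses all 16 arrays of a series of 16, as 8 pools of mice: 4 pools exposed to octanoic acid (odor pools) and 4 exposed to filtered clean air (vehicle pools). Each pool was sorted by fluorescence into GFP+ and GFP- cells, and each of these samples was hybridised to a Clariom S array, a short-oligonucleotide array of the mouse transcriptome. For each pool the GFP+ log2 signal minus the GFP- log2 signal of the same treatment and replicate number was taken as the enrichment, and the odor effect is the mean enrichment of the 4 odor pools minus that of the 4 vehicle pools. An odor effect of 1 log2 is a doubling of the GFP+ to GFP- ratio.

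All mice, controls included, were of the strain S100a5-tauGFP, of both sexes and 7 to 12 weeks old. The 24 animals spent 40 h in individual chambers under an air flow of 3.1 L/min. From 26 h on they received the odorant, or filtered air alone, for 10 s every 20 min. Each pool holds the olfactory mucosa of 3 mice, and 50 to 100 ng of total RNA went into each labelling reaction. The labels do not give the concentration of octanoic acid, the sex or age of the mice in a pool, or the allele state of the reporter.

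Each mature olfactory sensory neuron of the mouse transcribes a single olfactory receptor gene, chosen from a very large family, so the receptor mRNA in a sorted sample reports which neurons it holds. S100a5 encodes a calcium-binding protein whose transcription in these neurons rises with odor stimulation, and in the reporter strain its expression is read out as green fluorescence. In an assay of this kind, known as the Kentucky assay, receptors whose neurons were stimulated are looked for as mRNAs that gain in GFP+ over GFP- cells. Class I receptors, the older branch of the family, include many that bind carboxylic acids. Class II receptors make up the rest.

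The array table named 19505 genes, 1091 of them olfactory receptors, of which 122 were class I and 969 class II. The median signal of the 5222 negative control probe sets, 6.20 on the log2 scale, was taken as background. The 95th percentile of these control values was 10.4 log2. Receptors are called bright below if the mean of at least 1 of 4 groups lay 1 log2 or more above background. The 4 groups are 2 treatments by 2 sorted fractions. Of the 1091 receptors, 920 were bright. Their median signal was 9.22 log2, under that 95th percentile, so bright does not mean clear of all control values. Mean correlation of an array with the others of its group was 0.976 for odor GFP+ pool 3 and 0.986 to 0.991 for the other 15. Leukocyte markers had a mean log2 signal of 6.0 to 7.29 in GFP+ arrays and 10.8 to 13.1 in GFP- arrays, so the GFP- samples held blood-derived cells beside neurons. The 11 sustentacular (supporting) cell markers averaged 9.82 in odor GFP+ pool 3 and at most 9.0 in any other GFP+ array. The mature neuron markers averaged 16.4 to 17.0 log2 in every group, the GFP- fractions included. In sorted pools a fall in the number of neurons and a fall in receptor mRNA per neuron cannot be told apart.

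No gene, receptor or otherwise, changed its enrichment with octanoic acid past an adjusted p of 0.05 (limma, Benjamini-Hochberg over all 19505 genes; 0.0% called). The smallest adjusted p was 0.940, shared by many genes. Unadjusted, 871 genes and 83 receptors had p under 0.05. The GFP+ arrays alone called 0.0% of genes (smallest adjusted p 0.955 by limma, 716 genes at unadjusted p under 0.05), and the GFP- arrays alone also 0.0% (smallest adjusted p 0.985 by limma, 741 genes unadjusted). What follows therefore gives effect sizes, their intervals and how often the pools of each treatment fell apart, and makes no claim of change for any single receptor.

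The receptors centred slightly below no effect. Their median odor effect was -0.12 log2 (quartiles -0.43 and 0.14; range -1.83 to 1.29), against -0.03 for all genes. Of the 1091 receptors, 674 (61.8%) had an effect below 0, and of all genes 53.4% did. The median is small beside the spread between pools, which had a median SD of 0.66 log2 per receptor over odor pools and 0.61 over vehicle pools, against 0.40 and 0.33 for all genes. Centring each array on the median of its receptors raises all genes alike, here the all-gene median from -0.03 to 0.22 and the receptor median to 0.12. The receptor median stayed 0.10 below that of all genes (difference -0.10), as with array median centring, and the difference was -0.07 with quantile normalization. Leaving out 1 pool moved it between -0.22 (without odor pool 2) and -0.01 (without vehicle pool 4), with -0.03 without odor pool 3.

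Precision differed between receptors and set what the screen could bound. The 95% interval of a receptor reached a median of 0.85 log2 to each side of its effect (quartiles 0.70 and 1.04), against 0.59 over all genes. For 776 receptors (71.1%, against 86.4% of all genes) the upper limit lay under 1 log2, and for 1070 it lay under 2 log2. A doubling of the enrichment was thus outside the single-receptor interval of the 776, and within that of the other 315. Of the 776, 663 were bright and 113 dim (not bright). The 171 dim receptors had a median signal of 5.55 log2, under background, so no bound is read from their intervals. The bright counts are limited too, as a bright receptor can have a sorted fraction under background, where a change may not show. Olfr1406 is bright, with GFP+ means of 5.37 and 5.33 log2 under background and an interval of -0.83 to 0.68. How many bright receptors are limited in this way was not counted. Both limits lay within 1 log2 of 0 for 339 receptors (31.1%), and for 71.6% of all genes. These 339 were 271 bright receptors (29.5% of the bright) and 68 dim ones (39.8% of the dim).

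**Figure D1:**
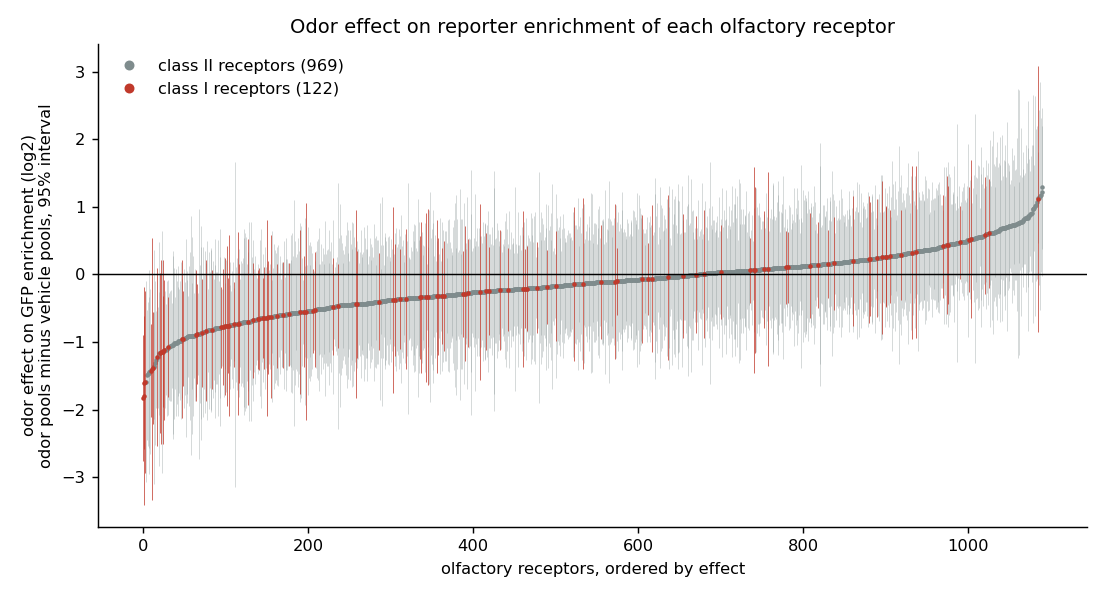
Odor effect on GFP enrichment (log2, y axis) of the 1091 olfactory receptors in order of effect (x axis), with the 95% interval from limma as a vertical line; class I receptors are red and class II grey. Most intervals cross 0: 20 lie wholly above it and 63 wholly below.

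More receptors lay below 0 than above it by either count. Of the 1091, 63 (5.77%) had an interval wholly below 0, where 2.51% of all genes did, and 20 (1.83%) had one wholly above, where 1.96% of all genes did. With the replicate number as a block these counts became 117 below (10.7%; 3.63% of all genes) and 45 above (4.12%; 2.56% of all genes), again with no gene past the adjusted threshold. With each array centred on its receptors, which raises all genes, they were 21 below (1.92%; 0.236% of all genes) and 47 above (4.31%; 2.94% of all genes). Without odor pool 2 the count below was 147 (13.5%; 4.59% of all genes). The count above 0 was 33 without odor pool 3 (3.02%; 1.54% of all genes) and 32 without vehicle pool 2 (2.93%; 1.73% of all genes).

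An effect of -1 log2 or less was found in 42 receptors (3.85%; 0.456% of all genes), and one of 1 log2 or more in 10 (0.917%; 0.21% of all genes). Large effects in both directions were thus more frequent among receptors, whose spread between pools was also wider. All 4 odor pools lay below all 4 vehicle pools in 19 receptors (1.74%; 1.49% of all genes). All 4 lay above in 5 (0.458%; 1.05% of all genes). The share below was near the background and the share above was under it. The 19 became 6 with receptor centring (0.55%; 0.205% of all genes). With any 1 pool left out they numbered 24 to 76 (76 without odor pool 2, which is 6.97% against 4.97% of all genes), and the 5 became 8 to 20 (20 without odor pool 3, which is 1.83% against 2.07%), since fewer pools have fewer chances to overlap.

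The bright receptors with the smallest unadjusted p below 0 were Olfr651, Olfr457, Olfr881, Olfr286, Olfr1253, Olfr1034, Olfr506, Olfr959, Olfr1223 and Olfr578. Those above 0 were Olfr1372-ps1, Olfr1180, Olfr972, Olfr101, Olfr32, Olfr50, Olfr194, Olfr1208, Olfr1434 and Olfr1484. These 20 were picked on the values given for them, so the values are a description. All 20 had an adjusted p of 0.940 by limma. Each kept its sign in all 15 other settings tried, and 10 of the 20 kept an interval off 0 in all of them. These settings reuse the pools on which the receptors were picked, and some, such as the replicate block, leave the effect itself unchanged. A kept sign is therefore no independent support. With 4 pools against 4 there are 70 ways to split the pools, and the smallest two-sided p an exact permutation test can give is 0.0286; it was reached by every receptor whose pools did not overlap.

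The 250 bases before the RefSeq start (mouse build GRCm38.p6) are shown for 2 of them: Olfr651, the receptor with the lowest effect of all, and Olfr1180, whose GFP- signal was lower in every odor pool. Homeodomain motifs are a class common upstream of olfactory receptor genes. Capitals mark where their core, TAATTA, was found. The variant core TAATTG is marked too, and both strands were searched, so that the latter also reads as CAATTA.
Olfr651, chr7:104552634-104552883, plus strand: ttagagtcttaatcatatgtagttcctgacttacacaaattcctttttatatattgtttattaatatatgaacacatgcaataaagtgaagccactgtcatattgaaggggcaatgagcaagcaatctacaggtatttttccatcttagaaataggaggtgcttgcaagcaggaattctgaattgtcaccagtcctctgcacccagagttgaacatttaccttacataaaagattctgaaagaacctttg
Olfr1180, chr2:88412690-88412939, minus strand: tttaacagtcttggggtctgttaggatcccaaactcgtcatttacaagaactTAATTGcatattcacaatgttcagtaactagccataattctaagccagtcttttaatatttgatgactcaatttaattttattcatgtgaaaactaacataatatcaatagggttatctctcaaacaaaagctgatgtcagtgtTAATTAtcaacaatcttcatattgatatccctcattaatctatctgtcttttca
The Olfr651 window held no match and the Olfr1180 window 2. Both windows end at a RefSeq start that is not an ATG. For 72.9% of the 925 receptors with a window the start is an ATG, so that the window lies before the coding sequence and not before a transcription start. Of the 251 other windows 37.5% held at least 1 match, as did 3 of the 10 of leading receptors. A match is a match of letters only.

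Olfr651, a class I receptor of family MOR31, had enrichments of 1.46, 2.56, 1.76 and 0.54 log2 in odor pools 1 to 4 and 4.05, 3.06, 2.68 and 3.85 in vehicle pools 1 to 4. Every odor pool lay below every vehicle pool, while all 8 stayed on the GFP+ side. The effect was -1.83 log2 (95% interval -2.76 to -0.90; n = 4 and 4 pools), a GFP+ to GFP- ratio 3.56-fold lower. Its larger part came from the GFP- arrays, where the odor samples were higher by 1.16 log2 (interval 0.55 to 1.78) and did not overlap the vehicle samples. In GFP+ arrays they were lower by 0.67 (interval of the difference -1.46 to 0.13). The vehicle GFP- mean, 6.12 log2, was under background, and with values raised to background the effect was -1.56. Of 10 other measured receptors of family MOR31, 9 had an effect below 0 (median -0.33), none with an interval off 0. The neighbouring receptor genes Olfr649 and Olfr652 had effects of -0.54 and -0.78, with intervals that crossed 0.

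Olfr506, a class II receptor of family MOR204, had enrichments of 2.51, 2.75, 1.58 and 2.87 log2 in the odor pools and 3.89, 3.76, 2.89 and 5.14 in the vehicle pools. The highest odor pool lay just under the lowest vehicle pool. The effect was -1.49 (interval -2.45 to -0.52), with 1.07 higher in GFP- and 0.41 lower in GFP+ samples. Its mean GFP+ signal stayed near 12 log2 in both treatments, 11.8 and 12.2, while the GFP- mean was 9.35 with odor and 8.28 with vehicle.

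For Olfr881 the difference lay on the other side of the sort. Its enrichments were 0.43, -0.33, -1.52 and -0.51 log2 in the odor pools and 0.56, 1.09, 0.72 and 1.10 in the vehicle pools. Every vehicle pool was enriched, and 3 of the 4 odor pools were depleted, with odor pool 3 lowest. The effect was -1.35 (interval -2.14 to -0.56), made of a GFP+ signal lower by 1.23 (interval of the difference -2.39 to -0.08) and a GFP- signal higher by 0.11. The 9 other receptors of its family MOR162 had a median effect of -0.03 and its neighbours Olfr878 and Olfr883 had 0.01 and 0.05.

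Olfr457, class II of family MOR257, was depleted from GFP+ cells in all pools, with -1.57, -1.32, -1.51 and -2.85 log2 after odor and -0.19, -0.56, -0.65 and -0.83 after vehicle. The odor pools lay lower without overlap, odor pool 4 well apart from the other 3. The effect was -1.26 (interval -1.98 to -0.54), shared by both fractions (GFP+ -0.65, GFP- 0.61). MOR257, Olfr457 included, had the lowest median effect, -0.52, among the 64 families with 6 or more measured members. Its 5 members other than Olfr457 had a median of -0.32, with 3 below 0 and 2 above. Next to Olfr457 on the chromosome, Olfr458 and Olfr456 had -0.59 and -0.83. Olfr456, also of MOR257, had an interval of -1.44 to -0.22 and no overlap between treatments, at a signal close to background.

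The remaining 6 of the leading receptors below 0 ranged from -1.22 (Olfr1034) to -0.75 (Olfr1223). The class I receptor Olfr578 had -1.08 (interval -1.81 to -0.34), with the GFP+ signal lower by 0.93 and the GFP- signal higher by 0.15. Olfr959 was the only one of the 10 whose treatments overlapped. All 10 had a GFP+ part below 0 and a GFP- part above 0, which a ranking on the difference of these parts favours. In 8 of the 10 the vehicle pools were enriched on average, as in 50 of the 63 receptors with an interval below 0. The same held in 6 of the 20 receptors with an interval above 0. A choice on a low odor minus vehicle value favours a high vehicle mean, and the opposite choice a low one. The median receptor was itself enriched in vehicle pools (0.40 log2), so these counts are a description.

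The 10 leading receptors above 0 were all class II, and their effects were smaller, from 0.55 to 1.14 log2. Olfr1372-ps1, which carries a pseudogene symbol, had enrichments of 1.68, 1.68, 2.43 and 2.21 log2 in the odor pools and 1.10, 0.74, 1.46 and 0.14 in the vehicle pools. Every odor pool lay above every vehicle pool, and vehicle pool 4 was lowest. Its effect was 1.14 (interval 0.46 to 1.81), a 2.20-fold higher ratio, with 0.28 from GFP+ and 0.85 lower signal in GFP- samples. The GFP- vehicle samples varied most, with an SD of 1.02 log2 against 0.40 in the odor ones. Of 48 other receptors of family MOR256, 28 lay above 0 and 20 below, with a median of 0.10.

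Olfr1180, family MOR225, had enrichments of 3.05, 1.85, 2.22 and 2.06 log2 in the odor pools and 1.34, 1.10, 1.08 and 1.74 in the vehicle pools. Again no odor pool reached down to a vehicle pool. The effect of 0.98 (interval 0.35 to 1.61) lay in the GFP- arrays, where the odor samples were lower by 0.90 (interval of the difference -1.41 to -0.39) without overlap. In the GFP+ arrays the difference was 0.08 (interval -0.51 to 0.67), so the GFP+ signal, 10.3 log2 with odor and 10.2 with vehicle, was nearly level. Its neighbours Olfr1179 and Olfr1181 had effects of -0.21 and -0.71 with wide intervals.

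Olfr972, Olfr1208 and Olfr1434 were strongly depleted from GFP+ cells under both treatments and less so with odor. Olfr972 stood at -5.30, -5.48, -6.01 and -4.98 log2 in the odor pools and -6.55, -6.23, -6.79 and -5.79 in the vehicle pools. The treatments overlapped only by vehicle pool 4, and the effect was 0.90 (interval 0.27 to 1.53), with the GFP+ signal 0.54 higher. Olfr1208 had an effect of 0.83, and 0.25 once values were raised to background, since its vehicle GFP+ mean (5.69) lay under it. For Olfr1434, with both GFP+ means under background, the effect of 0.90 likewise became 0.45.

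Olfr101 was among the strongly enriched receptors under both treatments, with 3.94, 4.02, 4.11 and 4.87 log2 in the odor pools and 3.38, 3.21, 3.29 and 4.00 in the vehicle pools. Only vehicle pool 4 reached into the odor range. Its effect was 0.76 (interval 0.16 to 1.36). Olfr32 had the narrowest interval of the 10, at 0.55 (0.12 to 0.99), with no overlap. Of the 10, 3 were without overlap (Olfr1372-ps1, Olfr1180 and Olfr32), and 2 more receptors outside the 10, Olfr1112 and Olfr1450, made up the 5.

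**Figure D2:**
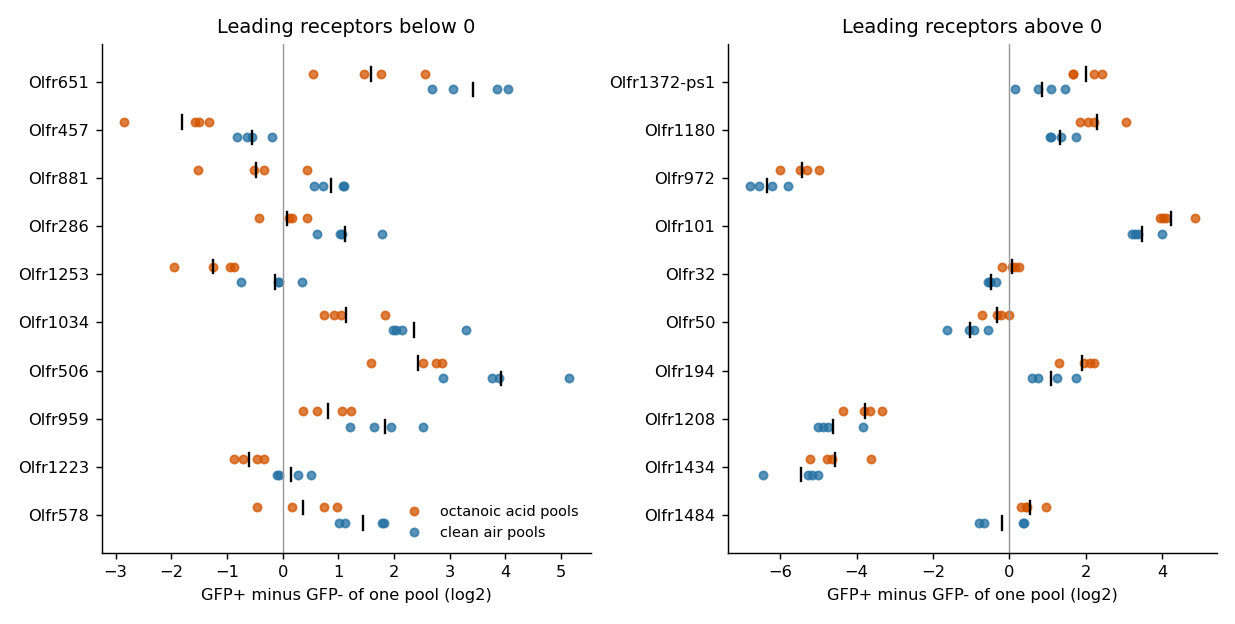
GFP+ minus GFP- log2 difference (x axis) of each pool for the 10 leading receptors below 0 (left) and the 10 above 0 (right); orange points are octanoic acid pools, blue points clean air pools (4 each), and black bars their means. The treatments do not overlap in 9 of the 10 on the left and in 3 of the 10 on the right.

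The odor effect is the difference of its parts in GFP+ and GFP- cells, and these were of like size. Over the 1091 receptors the GFP+ part had an SD of 0.35 log2 and the GFP- part 0.32. Their correlation across receptors was 0.02 (Pearson; genes on the same arrays, given as a description). In 60 of the 63 receptors below 0 both parts added to the effect (GFP+ lower, GFP- higher), and in 18 of the 20 above 0 the reverse held. A choice on the difference of the parts favours such opposite signs, so these counts describe the choice and are no agreement between the fractions. The GFP- part was the larger in 5 of the 10 leading receptors in each direction.

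**Figure D3:**
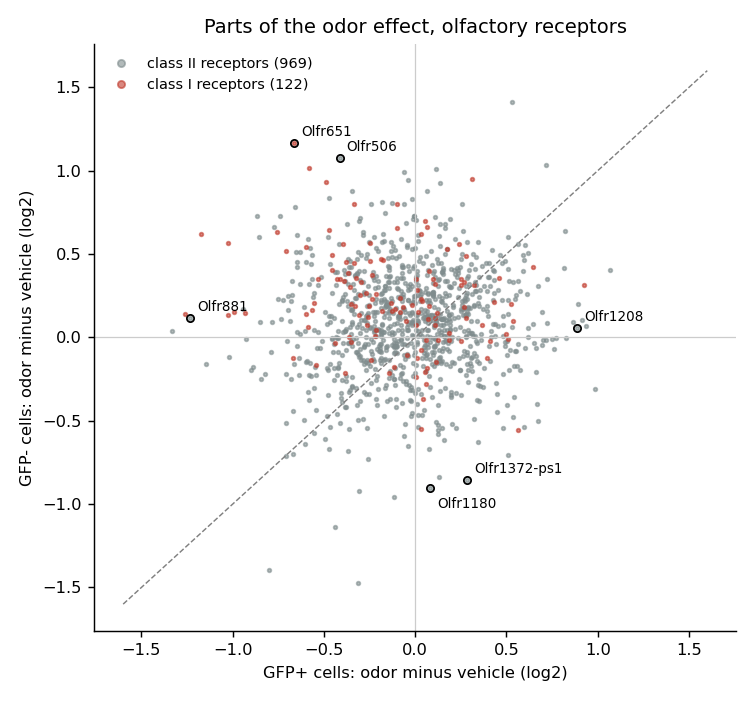
Odor minus vehicle difference in GFP+ cells (x axis, log2) and in GFP- cells (y axis, log2) for each of the 1091 receptors, class I in red and class II in grey, with 6 leading receptors circled. The dashed line marks equal differences in both fractions, an odor effect of 0; Olfr651 and Olfr506 lie high, Olfr881 lies to the left, and Olfr1180 and Olfr1372-ps1 lie low.

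Class I receptors lay lower than class II. Their median odor effect was -0.32 log2 (quartiles -0.70 and 0.05), and 89 of 122 (73.0%) were below 0; for class II the median was -0.11, with 585 of 969 (60.4%) below 0. An interval below 0 was found in 16 class I receptors (13.1%) and in 47 class II receptors (4.85%), and none of the 20 intervals above 0 belonged to class I. Effects of -1 log2 or less were found in 14 class I receptors (11.5%) and in 28 class II receptors (2.89%). Among bright receptors the medians were -0.40 for 87 of class I and -0.13 for 833 of class II. Class I signals were also lower, with a median of 7.65 log2 against 8.92, and the part of signal in the class difference was not tested. The class I median stayed below 0 under every scaling tried, and was -0.07 with receptor centring, where that of all genes was 0.22.

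By pool the classes were less distinct. The class I median enrichment was -0.09, 0.24, 0.14 and -0.19 log2 in odor pools 1 to 4 and 0.46, 0.19, 0.24 and 0.14 in vehicle pools 1 to 4. Odor pools 1, 3 and 4 lay below every vehicle pool, pool 3 only just, and odor pool 2 lay within the vehicle range. The class I minus class II median was -0.36, -0.44, 0.13 and -0.52 in the odor pools and 0.07, -0.25, 0.08 and -0.53 in the vehicle pools. Both treatments covered nearly the same range, so a lower position of class I in odor pools did not exceed the spread between pools. The median over all receptors was 0.27 ± 0.24 in odor and 0.40 ± 0.18 in vehicle pools (SD, n = 4 each), with overlap.

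**Figure D4:**
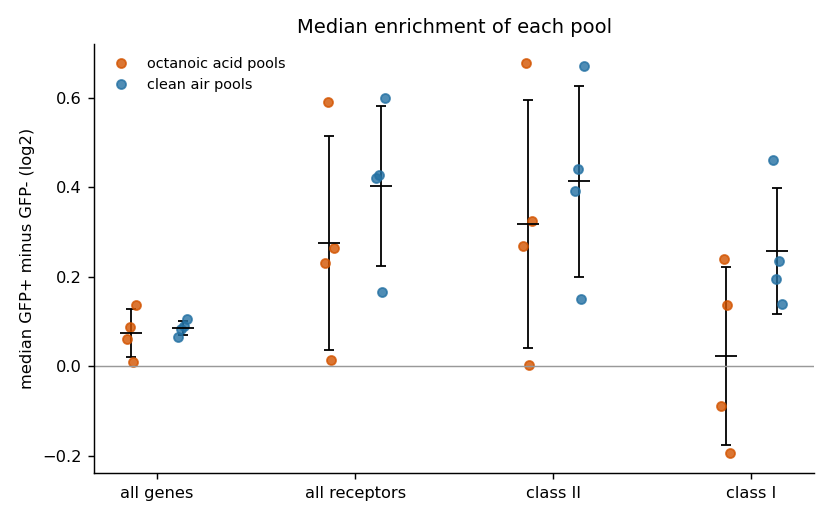
Median GFP+ minus GFP- difference (log2, y axis) over all genes, all receptors, class II and class I receptors in each octanoic acid pool (orange) and each clean air pool (blue); bars give the mean and SD over 4 pools. The treatments overlap in every set, with odor pools 1 and 4 lowest for class I.

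Receptor families, grouped by MOR number, lay below 0 more often than above. Of the 64 families with 6 or more measured members, 48 had a median below 0 and 16 above. Receptor centring turns these counts to 16 and 48, as it raises all genes. Against the all-gene median of the same scaling, 47 families were lower and 17 higher as deposited, with array median centring and with receptor centring alike, and 44 and 20 with quantile normalization. All 5 class I families of that size were below 0, from -0.40 (MOR32, 9 of 11 members below 0) to -0.01 (MOR40). Of these, MOR14 (-0.07) had a median signal of 5.27 log2, under background, so little is read from its value. MOR40 lay above the all-gene median of -0.03. The highest median was 0.63 in MOR260, where all 7 members lay above 0, from 0.15 (Olfr702) to 1.22 (Olfr1532-ps1), and none had an interval off 0. By pool its median was 1.86, 1.78, 0.16 and 0.39 after odor and 1.20, 0.36, -0.22 and 0.82 after vehicle, so odor pools 1 and 2 were above the vehicle range and the other two within it. Members of a family can be close in sequence, and their probe sets may share RNA.

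Receptors with known carboxylic acid ligands gave mixed values. The 5 measured members of a list of 6 had a median effect of -0.18, with 4 below 0 and none called. Olfr545 had enrichments of -2.02, -0.68, -0.10 and -1.13 log2 in the odor pools and 0.12, 0.13, -0.26 and 0.63 in the vehicle pools. Odor pool 3 overlapped vehicle pool 3, and the effect was -1.14 (interval -1.95 to -0.32; two-sided exact permutation p = 0.0571, n = 4 and 4). Olfr544, whose known ligand is azelaic acid, had -0.18 (interval -0.73 to 0.36), an interval that leaves out a doubling in either direction. Olfr620 had -1.39 (interval -2.22 to -0.56), but 3 of its 4 group means were under background and the value became -0.51 with values raised to it. Olfr691 had -0.11 (interval -0.96 to 0.74), but it was dim, with a highest group mean of 7.11 log2, so no bound is read from it. Olfr558, a receptor for isovaleric acid, was under background in all 4 groups, and no effect is read from it. None of the 5 lay above 0 with an interval off 0.

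The most and least enriched receptors over all 8 pools were also compared between treatments. Olfr536 was enriched by 5.03, 5.64, 4.91 and 5.19 log2 in the odor pools and 4.85, 5.20, 5.37 and 5.8 in the vehicle pools. The ranges overlapped and the effect was -0.11 (interval -0.68 to 0.46). Olfr309, the brightest of the 5 most enriched receptors at 15.7 log2 in odor GFP+ cells, had -0.08 (interval -1.0 to 0.84). Olfr481, Olfr494 and Olfr613 had -0.82, -0.77 and -0.76, with intervals that crossed 0 and GFP- signals under background. With values raised to background their effects were -0.55, -0.42 and -0.37. With the replicate block, on values as deposited, their intervals lay below 0 (upper limits -0.03, -0.05 and -0.07). The 5 least enriched receptors (Olfr1297, Olfr99, Olfr677, Olfr1507 and Olfr1406) had effects from -0.83 to 0.67, each with an interval that crossed 0. All but Olfr1297 had both GFP+ means under background, and with values raised to it Olfr99 went from 0.67 to -0.28 and Olfr677 from -0.83 to -0.45. With the block the intervals of Olfr99 (0.14 to 1.19) and Olfr677 (-1.64 to -0.03) lay off 0. The 15 trace amine-associated receptors, a separate small family expressed in the same tissue, had a median of 0.20, and no interval lay off 0.

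The reporter's own gene followed the sort in every pool. S100a5 was enriched in GFP+ cells by 2.05, 1.70, 1.55 and 0.82 log2 in the odor pools and 1.5, 1.04, 1.48 and 1.24 in the vehicle pools. The treatments overlapped, with odor pool 4 lowest of all, and the odor effect was 0.21 (interval -0.39 to 0.82). GFP+ cells of both treatments had high S100a5 signals, 16.6 with odor and 16.4 with vehicle.

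Other genes of the activity response and of odor transduction showed no called effect. In a list of activity-dependent genes, 7 of 8 were measured, 5 were below 0 and 2 above, and the median was -0.17. The 14 genes of the transduction cascade (among them Gnal, the G protein alpha subunit of these neurons, Adcy3, its adenylyl cyclase, and Cnga2, a channel subunit) had a median of -0.05, with 8 below and 6 above 0. All 7 genes of receptor trafficking lay below 0, where 53.4% of all genes did. The lowest, Hspa1l (-0.30), was under background in all 4 groups. The chaperones Rtp1 (-0.017) and Rtp2 (-0.026), and Ddit3 (-0.013), lay just above the all-gene median of -0.027. Reep1 (-0.05), Atf5 (-0.08) and Adcy3 (-0.22) lay below it. The 12 measured axon sorting genes had a median of -0.04, and the 20 immediate early genes -0.17. None of these lists held a gene with an interval off 0. With receptor centring the medians of all 5 lists were 0.08 to 0.21, under the all-gene median of 0.22 in that scaling.

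**Figure D5:**
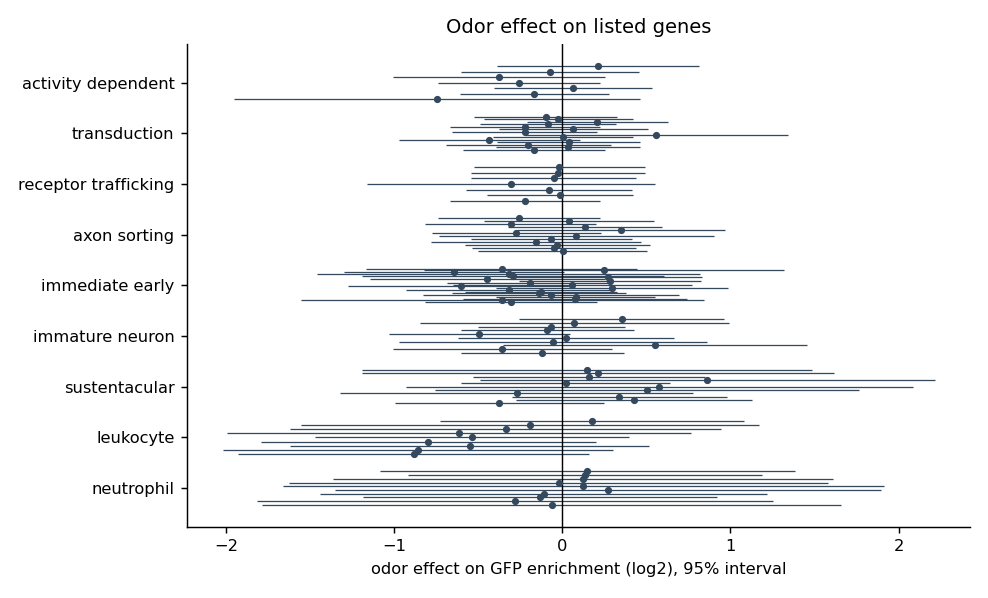
Odor effect on GFP enrichment (log2, x axis) of each measured gene in 9 lists (y axis), as a point with its 95% interval from limma. Every interval in these 9 lists crosses 0.

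Markers of other cell types also gave no call, and of all of them only Cftr, in the list of microvillous cells, had an interval off 0 (1.39, interval 0.26 to 2.53). The 11 sustentacular markers had a median effect of 0.21, which became -0.12 without odor pool 3, the pool with raised sustentacular signal in GFP+ cells. The 8 Bowman gland markers went from 0.24 to -0.02 in the same way. Of 9 leukocyte markers, 8 lay below 0, where 53.4% of all genes did, with a median of -0.55. Their mean GFP- level ranged from 10.97 to 13.1 in odor pools and from 10.8 to 12.2 in vehicle pools. The 10 neutrophil markers had a median of 0.05, with 5 above 0 and 5 below. The 5 measured B cell markers had a median of -0.08, with 2 above 0 and 3 below. The 2 measured erythroid markers lay below 0. The part of these cells in the receptor values was not tested.

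Outside the receptors the genes with the smallest p were mostly dim. Micall2, Ctnna3 and Krtap21-1 were under background in all 4 groups, and Aadacl4fm4 in 2 of the 4. Scd1, which encodes stearoyl-CoA desaturase, an enzyme of fatty acid desaturation, was depleted from GFP+ cells by -2.98, -3.42, -3.47 and -2.90 log2 in the odor pools and -2.64, -1.78, -1.73 and -1.37 in the vehicle pools. The pools did not overlap, although odor pool 4 and vehicle pool 1 came close. The effect was -1.31 (interval -1.94 to -0.68, adjusted p 0.940 by limma). The GFP- signal was higher by 1.25 (interval 0.51 to 1.98), while both GFP+ means were under background.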

How the data were processed

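The deposited log2 signals were made by the authors from Clariom S arrays with Affymetrix Expression Console, per the submitters' processing notes; the summary method and version are not given in the sources used here. Of 28846 probe sets, 6640 were controls and 2634 had no single gene name; the platform annotation named 19572, and keeping the brightest probe set of each gene dropped 67, which left 19505 genes. Receptor classes came from MOR family numbers (1069 receptors, families under 100 taken as class I) or from neighbouring receptors (22). R 4.3.3 with limma 3.58.1 fitted the 8 within-pool differences (lmFit, eBayes; prior SD 0.376 log2 with 5.25 prior degrees of freedom), and Python 3.11.15 with pandas 2.3.3 made the summaries. Intervals are 95% moderated intervals without adjustment; genes were called at adjusted p under 0.05. The script was tested on simulated data.

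Named genes were the 10 bright receptors of smallest p in each direction, the 5 most and 5 least enriched, the receptors without overlap, the carboxylic acid list, the reporter gene and the 5 other genes of smallest p; protein likeness was not used. Members and gene lists were chosen with earlier results of these data known.

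Odor and vehicle pools share replicate numbers. Deviations of same-numbered pools from their group means correlated at 0.18, 0.11, 0.24 and 0.10 over genes. Odor pools 2 and 4 correlated more with vehicle pools 4 and 3 (0.15 and 0.12). The main fit took odor and vehicle pools as independent groups, so its effects, intervals and p do not use the numbers. A pairing by number enters only in the alternative with the replicate block. The pools are of different mice. Array signals carry no read depth, and precision rests on 4 pools a treatment. Background over arrays ranged from 5.8 to 6.77 log2. Alternatives were other scalings, a floor at background, a filter on dim genes, another variance prior, the block, and leaving out each pool.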

Additional observations from a re-analysis of the deposited data

Results flagged for a closer look

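In 3 of 86 sets of 4 pools tested (43 named genes, each treatment apart), a single pool stood far from the other 3; chance alone marks about 1 set in 20. Olfr457 had -2.85 log2 in odor pool 4 and -1.57 to -1.32 in the other odor pools. Olfr1034 had 3.29 in vehicle pool 3 and 1.98 to 2.14 in the other vehicle pools. Olfr481 had 5.97 in odor pool 2 and 4.07 to 4.26 in the other odor pools.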

How the results depend on the processing

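No gene passed the threshold in any setting except the floor at background, where 1 did (Zfp874a, effect 0.53 in both, adjusted p 0.0380 against 0.940 by limma); all its arrays were above background. Receptors with an interval above 0 numbered 20, and 47 with receptor centring, 11 with the floor and 45 with the replicate block. Those with an interval below 0 numbered 63, and 21, 31 and 117 in the same settings. Receptors without overlap above numbered 5, and 13 with quantile normalization and 12 with receptor centring; those below numbered 19, and 6 with receptor centring. The receptor median of -0.12 became 0.12 with receptor centring, which raises all genes alike (all-gene median -0.03 to 0.22); receptors minus all genes stayed at -0.10. Leaving out each pool gave 17 to 33 intervals above 0, 47 to 147 below, 8 to 20 receptors without overlap above, 24 to 76 below (fewer pools overlap less by construction), and a receptor median of -0.26 to -0.03. Otherwise the cause was not tested. The fit with the replicate block called no gene. Of the named receptors, the block moved the intervals of Olfr481, Olfr494, Olfr613, Olfr99 and Olfr677 off 0. It let those of Olfr1484 (-0.01 to 1.45) and Olfr1112 (-0.01 to 0.97) cross 0, and it changed no other. The signal over background limits the 171 dim receptors. It also limits bright ones with a group mean under background, such as Olfr1208 and Olfr99.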
